A study of Mus musculus with 2 samples.

Results

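The miR-135 family of the mouse comprises 3 microRNA hairpins, Mir135a-1, Mir135a-2 and Mir135b. They were found by the gene identifier of each row, looked up in the GENCODE annotation, and make up 3 of the 1973 microRNA genes in the count tables. Small RNA was sequenced from whole forebrains of newborn mice (postnatal day 0, strain B6NCrl, sex not collected). The libraries form 1 group of 2 biological replicates, pup 3 (replicate 2) and pup 1 (replicate 1), each a single forebrain. The labels list the same donor record for both pups and name no treatment, transgene or mutation, so there is no contrast between conditions. The question the data can answer is how many assigned reads each hairpin had in the newborn forebrain and how far the pups differed. Each ratio below is pup 3 over pup 1, compares 2 libraries, and carries no p-value.

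A microRNA is cut from a hairpin precursor into a short RNA that guides Argonaute to messenger RNAs, mostly through its seed, bases 2 to 8 from the 5′ end. Members of the miR-135 family share a seed and so are expected to recognise overlapping sets of messages. In human colorectal cells miR-135a and miR-135b repress APC, an inhibitor of Wnt signalling. In mouse raphe neurons miR-135 represses the serotonin transporter gene Slc6a4 and the serotonin receptor gene Htr1a. In the mouse embryo Mir135a-2 lies within the noncoding gene Rmst and has been linked to Lmx1b and Wnt signals in the midbrain.

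The hairpins are shown because their sequence decides which reads can be told apart (RefSeq, GRCm38.p6, all 3 matched by symbol). Capitals mark the seed of the 5′ arm.
Mir135b: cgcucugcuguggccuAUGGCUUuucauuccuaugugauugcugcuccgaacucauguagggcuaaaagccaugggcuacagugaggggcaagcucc
Mir135a-1: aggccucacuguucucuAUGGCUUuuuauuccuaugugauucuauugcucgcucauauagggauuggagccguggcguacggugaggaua
Mir135a-2: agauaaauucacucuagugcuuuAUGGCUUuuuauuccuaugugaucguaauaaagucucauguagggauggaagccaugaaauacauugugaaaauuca

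Mir135b (ENSMUSG00000065435.1) occupies chr1:132198088-132198184 on the plus strand of GRCm38, in an intron of the protein-coding gene Lemd1. It also lies in an intron of the overlapping gene model AC124108.1, on the same strand. Mir135a-1 (ENSMUSG00000065407.1) occupies chr9:106154124-106154213 on the plus strand. It lies in an intron of the antisense RNA gene D030055H07Rik and overlaps an exon of Glyctk, a glycerate kinase gene on the opposite strand. Mir135a-2 (ENSMUSG00000065524.1) occupies chr10:92072086-92072185 on the minus strand, in an intron of Rmst. The 3 hairpins thus lie on 3 chromosomes, and none is clustered with another member.

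The mature arms show where the members are alike. In the lines below capitals mark the seed of each arm.
miR-135a-5p (from Mir135a-1 and from Mir135a-2): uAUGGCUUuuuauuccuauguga
miR-135a-1-3p: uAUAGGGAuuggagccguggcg
miR-135a-2-3p: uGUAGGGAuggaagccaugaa
miR-135b-3p: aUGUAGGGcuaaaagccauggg
The 5′ arm of both miR-135a hairpins is the same 23 bases. The reference used had no entry for the 5′ arm of Mir135b, so its seed was placed by that of miR-135a-5p. The stretch of Mir135b aligned with miR-135a-5p, without a gap, was identical at 22 of the 23 bases. The difference was U11C, with miR-135a-5p as the reference and positions counted from 1 at its 5′ end. It lies outside the seed. The seeds of the 3′ arms differed among all 3 hairpins.

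Over their whole length the hairpins were less alike than over the 5′ arm. Global alignment gave 67.0% identity between Mir135a-1 and Mir135a-2, 66.3% between Mir135a-1 and Mir135b, and 62.9% between Mir135a-2 and Mir135b. GC content was 53.6% for Mir135b, 46.7% for Mir135a-1 and 33.0% for Mir135a-2. The longest stretch shared by Mir135a-1 and Mir135a-2 was 24 bases, the 5′ arm and the base after it. Mir135b shared at most 14 bases with Mir135a-1 and 13 with Mir135a-2. Among 1894 annotated hairpins searched on both strands, none but the pair of miR-135a hairpins shared 20 bases or more with any member. Of windows of 22 bases, 3 of 69 in Mir135a-1 and 3 of 79 in Mir135a-2 occurred in another hairpin, against 0 of 76 in Mir135b. A read of miR-135a-5p alone therefore has at least 2 places of origin, and reads tallied as mapping to several places are in no gene's count. The counts of Mir135a-1 and Mir135a-2 are uncertain for this reason and may be too low, while a full 5′ arm read of Mir135b differs from the miR-135a arm by a base.

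A seed match was looked up in the messages that miR-135 is known to repress in raphe neurons. The letters AAGCCAT, complementary to the seed, occurred once in the annotated 3′ UTR of Htr1a, at position 1880 of 2603, on the plus strand at chr13:105447399-105447405 (GRCm38). It is shown within a window of 24 bases, chr13:105447384-105447407.
Htr1a site (capitals mark the seed match): ctgccctgccacatgAAGCCATtg
These letters were not in the annotated 3′ UTRs of the Slc6a4 transcripts, of 663 and 662 bases. A match of this kind is a description of the sequence, and neither message was measured.

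The libraries held 18798326 reads in pup 3 and 22470992 in pup 1, of which 7678662 (40.8%) and 9037087 (40.2%) were assigned to microRNA genes. Reads tallied as mapping to several places were 43.5% of all reads in pup 3 and 43.0% in pup 1. Levels are given in CPM, counts per 1000000 assigned reads of a library. Of 9 neural marker hairpins, 8 were in the tables, each with counts, and summed to 44042 CPM in pup 3 and 32380 CPM in pup 1. Most of this was Mir137, a neuron-enriched microRNA, with 33595 CPM in pup 3 and 24345 CPM in pup 1. Only 4 of the 8 neural hairpins reached a mean of 10 CPM. Mir124a-1, Mir124a-2, Mir124a-3 and Mir9-2 did not, and the highest of these, Mir124a-1, had a mean of 9.85 CPM. All of the 8 but Mir137 share a stretch of 20 bases or more with another hairpin, so low counts among them do not show absence. MicroRNAs of the Hox clusters, which mark tissue behind the forebrain, summed to 148 CPM in pup 3 and 196 CPM in pup 1 over 6 hairpins, with Mir196a-1 at 0 in both. Mir196a-1 and Mir196a-2 also share such a stretch with another hairpin, so their low counts do not show absence.

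Mir135b held most of the family's assigned counts, from which reads of the shared miR-135a arm may be missing. It had 110031 counts in pup 3 and 89708 in pup 1, or 14329 CPM (95% exact Poisson interval 14245 to 14414) and 9927 CPM (9862 to 9992). Its mean was 12128 ± 3113 CPM (SD, n = 2), which is 1.21% of all assigned reads. It ranked 12th of 706 genes with a count in pup 3 and 17th of 734 in pup 1. Intervals here cover counting error only, and the labels mention no molecular identifiers, so repeated copies of a molecule are counted as reads.

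The miR-135a hairpins had far fewer counts. Mir135a-1 had 631 counts in pup 3 and 1494 in pup 1, or 82.2 CPM (75.9 to 88.8) and 165 CPM (157 to 174), with a mean of 124 ± 58.8 CPM (SD, n = 2). Mir135a-2 had 498 counts in pup 3 and 1050 in pup 1, or 64.9 CPM (59.3 to 70.8) and 116 CPM (109 to 123), with a mean of 90.5 ± 36.3 CPM (SD, n = 2). Mir135a-1 ranked 224th in pup 3 and 196th in pup 1, and Mir135a-2 ranked 240th in pup 3 and 213th in pup 1. Pup 3 was the higher library for Mir135b and the lower one for both miR-135a hairpins.

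**Figure D1:**
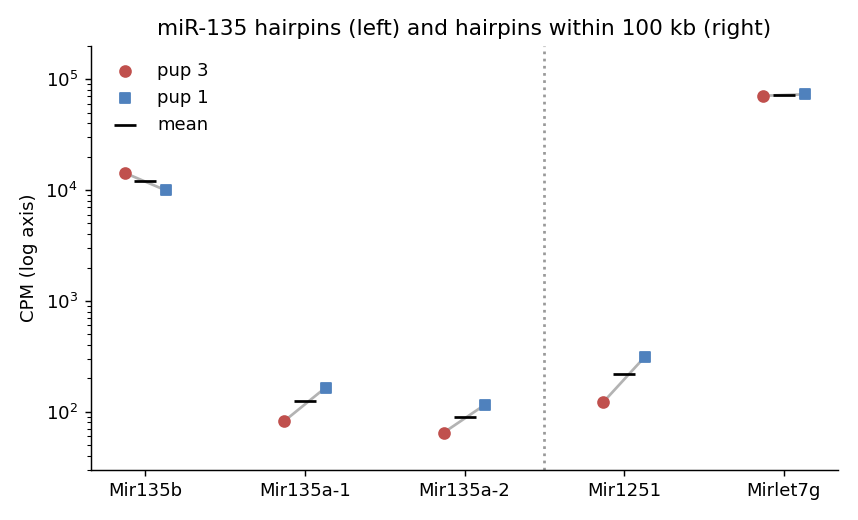
Level of each miR-135 hairpin and of the hairpins within 100 kb of a member, in CPM on a log axis; circles are pup 3, squares pup 1, and dashes the mean of both. Mir135b sits at 14329 and 9927 CPM, while Mir135a-1, Mir135a-2 and Mir1251 lie between 64.9 and 313 CPM and are lower in pup 3.

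The order of the levels was the same in both pups: Mir135b, then Mir135a-1, then Mir135a-2. Per 100 bases of hairpin it was also the same, at 12503, 137 and 90.5 CPM on the mean of the pups. The step in counted reads from Mir135b to the others exceeded the difference between pups many times over, though the miR-135a counts may be too low. The ranges of Mir135a-1 and Mir135a-2 over the pups, 82.2 to 165 CPM and 64.9 to 116 CPM, overlap. That overlap does not take into account that both were counted in the same libraries. Within each library, however, Mir135a-1 took the larger part of the miR-135a counts. That part was 55.9% in pup 3 (95% Wilson interval 53.0 to 58.8) and 58.7% in pup 1 (56.8 to 60.6), and the intervals overlap.

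**Figure D2:**
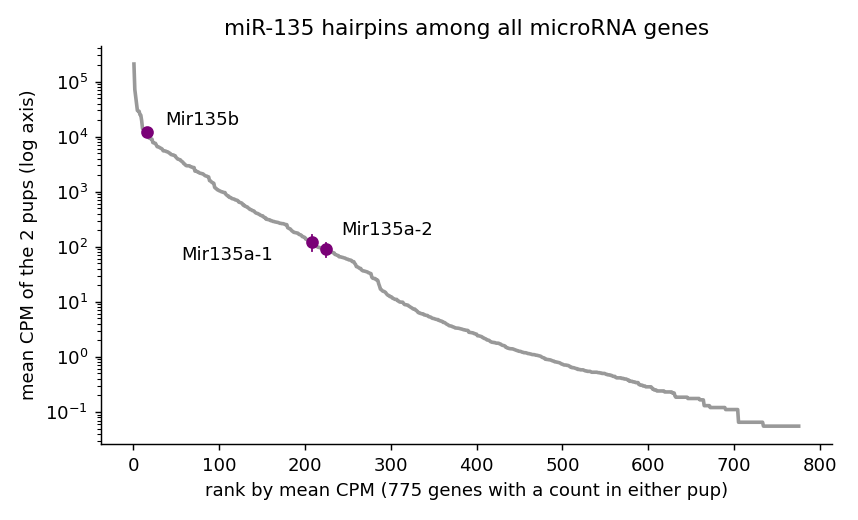
All 775 genes with a count in either pup, ranked by mean CPM of the 2 pups on a log axis; points are the miR-135 hairpins and vertical bars join their values in the pups. Mir135b ranks 16th on the mean, Mir135a-1 208th and Mir135a-2 225th.

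Together the 3 hairpins held 1.45% of the reads assigned in pup 3 (95% Wilson interval 1.439 to 1.456) and 1.02% of those in pup 1 (1.014 to 1.027), a mean of 1.23% ± 0.302 (SD, n = 2). Mir135b supplied 98.98% of the family's counts in pup 3 (98.92 to 99.04) and 97.24% in pup 1 (97.13 to 97.35). Its count was 97.5 times that of both miR-135a hairpins together in pup 3 and 35.3 times in pup 1. The family total is therefore in effect the count of Mir135b, with the reservation that reads of the shared 5′ arm of miR-135a may be missing from it. The reads in no gene's count because they mapped to several places numbered 8171236 in pup 3 and 9673667 in pup 1, and how many of them came from miR-135a was not tested.

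Every read counted at a member stood in the second of the table's 3 count columns, and the third was at 0 for all members in both pups. The notes do not say what either column holds. Over the other microRNA genes the second column held 98.1% of counts in pup 3 and 97.3% in pup 1, so it was taken to hold reads on the gene's own strand. That reading is an inference, and the strand of the members' reads was not tested apart from it.

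The members moved in different directions between the pups. Scaled by TMM, a factor that corrects for differences in composition, Mir135b was 1.66-fold higher in pup 3, with 0.73 on the log2 scale (95% interval, exact binomial, 0.72 to 0.74). The level of Mir135a-1 in pup 3 was 0.571 of that in pup 1, a log2 ratio of -0.81 (-0.94 to -0.67). For Mir135a-2 it was 0.642, a log2 ratio of -0.64 (-0.80 to -0.49). In bulk tissue, fewer cells that make a microRNA and less of it per cell cannot be told apart. All 3 hairpins passed the minimum mean of 10 CPM, as did 310 genes in all.

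Differences of this size were common between these libraries. A ratio of 1.5-fold or more, 0.58 on the log2 scale, was reached in either direction by 32.9% of the 310 genes and by all 3 members. Upward it was reached by 17.4%, among them Mir135b, and downward by 15.5%, among them Mir135a-1 and Mir135a-2. The interval of Mir135a-2 also holds values short of that fold. A log2 ratio at least as far from 0 as that of Mir135b was seen in 23.5% of genes, as that of Mir135a-1 in 18.7%, and as that of Mir135a-2 in 30.6%. The biological coefficient of variation that edgeR estimated over 301 genes was 0.304. Scaling by total counts shifted the median of these 310 log2 ratios by -0.20. It changed the split of genes past 1.5-fold to 38 higher and 73 lower, against 54 higher and 48 lower under TMM. Under that scaling Mir135b had 0.53 and was no longer past 1.5-fold, while the miR-135a hairpins had -1.01 and -0.84, so the directions of all 3 stayed as they were.

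**Figure D3:**
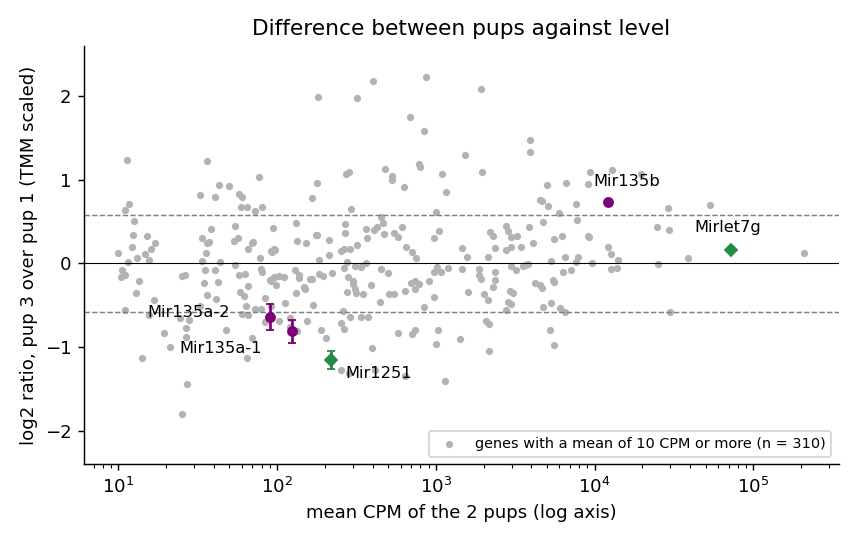
Log2 ratio of pup 3 over pup 1 (TMM scaled) against mean CPM on a log axis for 310 genes whose mean reached 10 CPM (grey); purple circles are the miR-135 hairpins, green diamonds the hairpins within 100 kb, bars the 95% exact binomial intervals (counting error only) and dashed lines 1.5-fold. Mir135b at 0.73 lies above the upper line, Mir135a-1 at -0.81, Mir135a-2 at -0.64 and Mir1251 at -1.16 lie below the lower one, and Mirlet7g at 0.16 lies between.

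The difference in log2 ratio between members does not depend on scaling. Mir135b exceeded Mir135a-1 by 1.54 (95% interval of the odds ratio on the log2 scale, 1.40 to 1.67) and Mir135a-2 by 1.37 (1.22 to 1.53). Mir135a-1 and Mir135a-2 differed by -0.17 (-0.37 to 0.04), an interval that includes 0. These intervals cover counting error only, and how often other pairs of genes differ as much was not tested. The summed miR-135a hairpins had a log2 ratio of -0.74 (-0.84 to -0.64) and the sum of all 3 members 0.70 (0.69 to 0.72), which again follows Mir135b. The Hox cluster microRNAs, as a sum, had a log2 ratio of -0.20, and 4 of the 5 with counts were lower in pup 3. These were Mir10a at -0.62, Mir196b at -0.96, Mir615 at -1.32 and Mir196a-2 at -0.72, the last from 6 counts in pup 3 and 14 in pup 1. The most abundant of the list, Mir10b, had 0.17. Of the 6 listed, only Mir10a and Mir10b reached a mean of 10 CPM. The median log2 ratio over all 310 genes was -0.03, so a ratio below 0 was common. The part of the Hox cluster microRNAs in the lower miR-135a counts of pup 3 was not tested.

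Hairpins within 100 kb of a member were Mir1251 and Mirlet7g, and Mir135b had none. Mir1251 lies 65.0 kb from Mir135a-2 on the same strand and, by its position, within Rmst as well (chr10:92137140-92137223). It had 939 counts in pup 3 and 2831 in pup 1, or 122 and 313 CPM, and a log2 ratio of -1.16 (-1.27 to -1.05). Both hairpins of Rmst were thus lower in pup 3, Mir1251 by more: Mir135a-2 exceeded it by 0.52 in log2 ratio (0.33 to 0.70). A lower level in pup 3 was not particular to Rmst. Mir135a-1, on another chromosome, had -0.81, and 15.5% of the 310 genes were at least 1.5-fold lower. Mir1251 shares no stretch of 20 bases with another of the hairpins searched, unlike miR-135a. Places outside annotated hairpins were not searched, so loss of its reads to the tally of several places was not tested.

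Mirlet7g, a let-7 hairpin whose product restrains growth of progenitors, lies 24.6 kb from Mir135a-1 on the same strand (chr9:106178840-106178927). It had 71032 CPM in pup 3 and 73153 CPM in pup 1, with a log2 ratio of 0.16 (0.15 to 0.16). Mir135a-1 minus Mirlet7g was -0.97 in log2 ratio (-1.10 to -0.83). The neighbour on chromosome 9 and Mir135a-1 therefore did not share a direction under TMM, while under total counts both were lower in pup 3, as the CPM of Mirlet7g show.

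The genes closest to Mir135b in log2 CPM over the 2 libraries, among 433 with 10 counts or more in both, were Mir17, Mir181c and Mir26b. Mir17, of a polycistron that promotes proliferation of progenitors, had 16718 CPM in pup 3 and 8839 CPM in pup 1. Mir181c had 12098 CPM in pup 3 and 12135 CPM in pup 1, and Mir26b 12226 CPM in pup 3 and 13033 CPM in pup 1. In CPM, Mir17 alone of the 3 was higher in pup 3, as Mir135b was. Under TMM all 3 had log2 ratios above 0, at 1.12 for Mir17, 0.20 for Mir181c and 0.11 for Mir26b. With 2 libraries such likeness is mainly likeness of level.

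The miR-135a hairpins can be set beside other microRNA families with several gene copies of the same mature arm. Of 36 such hairpins listed, 35 were in the tables. All 35 shared a stretch of 20 bases or more with another hairpin, which follows from how the list was chosen. Their mean CPM ranged from 0.260 to 7826, with a median of 54.2. Of the 35, 23 were below Mir135a-1 and 22 below Mir135a-2, and 0 were above Mir135b. The most abundant were Mir181a-1 at 7826 ± 457 CPM and Mir128-1, a brain-enriched microRNA, at 5919 ± 1152 CPM (SD, n = 2).

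Among the 433 genes with 10 counts or more in both pups, 91 shared a stretch, with a median of 79.5 CPM. Mir135a-1 and Mir135a-2 both lay above that median. The 342 genes without a shared stretch had a median of 116 CPM, and 15 of them were above Mir135b.

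The lists of microRNAs linked to the same pathways are given beside the background of 310 genes, where 17.4% passed 1.5-fold upward and 15.5% downward. Of 10 Wnt-linked microRNAs listed, 9 were in the tables and above 10 CPM, and 1 was at least 1.5-fold higher, 1 at least 1.5-fold lower and 7 between. Their median log2 ratio was 0.07, against -0.03 over all 310 genes. The most abundant were Mir106b, of a cluster related to miR-17-92, with 5652 CPM in pup 3 and 6987 CPM in pup 1, and Mir34c, of a p53-responsive family, with 2384 CPM in pup 3 and 2181 CPM in pup 1. Of 6 serotonin-linked microRNAs, a list led by miR-16, which represses Slc6a4 in mouse raphe neurons, 4 were at least 1.5-fold higher, 0 lower and 2 between. Their median log2 ratio was 1.21, against the same -0.03 over all 310 genes. Mir15a had 12220 CPM in pup 3 and 6593 CPM in pup 1, and its cluster partner Mir16-1 had 5382 CPM in pup 3 and 2458 CPM in pup 1. In this list several members are neighbours or share a seed, so they are not independent of each other.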

How the data were processed

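Small RNA libraries of 2 newborn forebrains were analysed. Each deposited table holds raw read counts for microRNA genes on mm10 with annotation release M4, per the authors' notes beside it. The name of the aligner or counting tool was not given in the sources used here. Of 3 count columns the first was used, which equalled the sum of the other columns in all 1973 genes. The 4 tallies that name no gene stayed out of library totals. Those for reads mapping to several places, unmapped and in no gene held 43.5%, 14.4% and 1.26% of reads in pup 3, and 43.0%, 14.9% and 1.85% in pup 1. Names came from GENCODE M21 (GRCm38), which matched 1894 identifiers; listed hairpins under an older symbol were found through RefSeq synonyms.

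Ratios used counts with 0.5 added and TMM factors of edgeR 4.0.16 (0.933 for pup 3 and 1.07 for pup 1). The spread was estimated by estimateDisp with an intercept alone, on genes at 10 CPM or above in each pup. With 1 group there was no contrast for edgeR to test. Intervals were exact Poisson, exact binomial or Wilson at 95%. DESeq2 1.42.0 gave alternative size factors. Hairpins were aligned with Biopython 1.88. R 4.3.3 and Python 3.11.15 were used, and the ratio step was checked on simulated counts.

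The members and lists were chosen with earlier results of these data known. The text names the members, annotated hairpins within 100 kb, the 3 genes nearest to Mir135b in log2 CPM and the 2 most abundant hairpins of each list; the windows of 22 bases, and the Hox and neural hairpins singled out, were added after values were seen. Markers of blood, liver and muscle summed to 523, 75.0 and 44.5 CPM in pup 3 and to 358, 54.0 and 94.8 CPM in pup 1. The muscle sum was that of Mir206 alone. Mir1a-1, Mir133a-1 and Mir133a-2 had 0 counts in both pups but share a stretch with another hairpin, so this does not show absence.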

Additional observations from a re-analysis of the deposited data

How the results depend on the processing

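The members' levels, ranks, shares and ratios, and the counts of genes, shared stretches and neighbours, were recomputed with 1 choice changed at a time. The second count column alone left levels, shares and ranks within the spread of the pups, and moved the log2 ratio of Mir135b to 0.71. The third count column alone gave 0 for each member and for the family share, and no ratio, rank or share within the family. It bears on no level, since these columns were told apart by where nearly all reads lay. Per 1000000 of all reads, mapped or not, mean levels were 50.03 for Mir135a-1, 36.6 for Mir135a-2 and 4923 for Mir135b, and the family share was 0.501%, since that denominator is larger. Scaling by total counts gave log2 ratios of -1.01, -0.84 and 0.53 for Mir135a-1, Mir135a-2 and Mir135b. DESeq2 size factors and a pseudocount of 1 kept every log2 ratio of a member within its counting interval. Of the 310 genes, 102 were past 1.5-fold and 36 past 2-fold. Without a minimum level, 384 of the 775 genes with a count in either pup were past 1.5-fold. No member passed 2-fold under TMM: Mir135b was 1.66-fold higher, Mir135a-1 1.75-fold lower and Mir135a-2 1.56-fold lower. Within 50 kb there was 1 neighbouring hairpin instead of 2. Stretches of 16 or 24 bases marked the same number of members as shared. Leaving out each pup in turn, the rank of Mir135b ranged from 12 to 17, its level from 9927 to 14329 CPM, that of Mir135a-1 from 82.2 to 165 CPM and that of Mir135a-2 from 64.9 to 116 CPM. The family share ranged from 1.02% to 1.45%, and the part of Mir135b in it from 97.2% to 99.0%. Ratios need both pups. No paired analysis was possible because both libraries belong to 1 group. With 2 pups, the spread of each level rests on a single difference, and the arms of a hairpin cannot be told apart in a count per gene.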
